A study of Mus musculus with 2 samples.

Results

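The 10 genes described here form a group named for fatty acid uptake by the endothelium of capillaries: *Cd36*, *Lpl*, *Gpihbp1*, *Fabp4*, *Aqp7*, *Rbp7*, *Pparg*, *Car4*, *Cd300lg* and *Btnl9*. They were taken by their symbols from the 33696 genes of the count matrices, and all 10 were found. They were measured by droplet-based single-cell RNA sequencing of the suprarenal abdominal aorta on day 28. Control mice received normal saline, and AngII+HS mice received angiotensin II (AngII) from minipumps, a model of abdominal aortic aneurysm. Per the methods of the study, the mice were 5-month-old C57BL/6J males, AngII was given at 1500 ng/kg/min, and the drinking water of the AngII+HS mice held 0.9% NaCl and 0.2% KCl. The design text speaks of tissue of 5 mice pooled per condition, whereas the protocol in the labels names 1 Control mouse and 2 AngII+HS mice. Each condition is 1 library, so no test between conditions was possible. No p-value is given. Every interval covers counting error only.

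Fatty acids reach tissues from the blood largely as triglycerides inside lipoproteins. Lipoprotein lipase (*Lpl*) is carried across capillary endothelial cells and held on their luminal surface by *Gpihbp1*, where it frees fatty acids. The receptor *Cd36* takes up fatty acids and oxidized lipoproteins, *Fabp4* carries fatty acids inside the cell, *Rbp7* is a related carrier of retinol, and *Aqp7* is a channel for glycerol. *Pparg* is a nuclear receptor that senses fatty acids and drives genes of lipid uptake. *Car4* is a carbonic anhydrase anchored to the capillary surface, and *Cd300lg* and *Btnl9* are membrane proteins of the immunoglobulin superfamily found on small-vessel endothelium. Macrophages also carry *Cd36*, *Lpl* and *Pparg*.

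After filtering and doublet removal, 10269 Control cells (median 7274 UMIs) and 19734 AngII+HS cells (median 3065.5 UMIs) were kept. A UMI is the tag of 1 captured RNA molecule. Each library's barcode list is as long as the other library's matrix, and 67 barcodes were shared by both lists. If the matrices too were exchanged, all directions below would turn. VSMCs (vascular smooth muscle cells) were 49.3% of the cells in the matrix recorded as Control and 3.18% in that recorded as AngII+HS, macrophages 4.67% and 22.6%, and neutrophils 0.964% and 23.6%. Loss of VSMCs and entry of leukocytes are known features of aneurysms. The cells were clustered without the 10 genes and named from fixed markers. Vascular endothelial cells (VECs) numbered 837 in the Control and 1203 in the AngII+HS library, and carried *Cdh5* at 1177 and 1279 CPM (the UMIs of a gene over all UMIs of that cell type and library, scaled to the same total in each). *Cdh5*, an endothelial adhesion protein, stood at 6.37 and 6.62 CPM in T cells. The T cells, which should lack most of the 10 genes, served as the background of free RNA, at a median depth of 4446 UMIs (Control) and 2328 UMIs (AngII+HS).

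VECs were clustered again into capillary-like, venous-like and arterial-like cells, without the 10 genes and without the subtype markers. Capillary-like cells numbered 139 (Control) and 426 (AngII+HS). The capillary marker list (*Rgcc*, *Kdr*, *Aqp1*, *Timp4*, *Adgrf5* and *Ly6c1*) summed to 8261 CPM in Control and 5724 CPM in AngII+HS capillary-like cells, against 1277 and 1100.1 CPM in arterial-like cells. Although they were left out of the clustering, 7 of the 10 genes were among the 10 leading genes of the capillary-like cluster, namely *Lpl*, *Gpihbp1*, *Rbp7*, *Btnl9*, *Car4*, *Fabp4* and *Cd36*. A separate group of 10 Control and 28 AngII+HS VECs led by *Rgs4* and *Notch3*, genes of pericytes, and a group of 30 Control VECs of low depth were left unnamed.

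In both libraries each of the 10 genes stood highest in capillary-like cells among 14 cell types and clusters compared. The fold over the next of them ran from 2.61 for *Btnl9* (next in lymphatic endothelial cells) to 169 for *Aqp7* (next in arterial-like cells) in the Control library. In the AngII+HS library it ran from 2.89 for *Pparg* (next in an unnamed cluster led by *Notch3* and *Pln*) to 17.2 for *Aqp7* (next in venous-like cells). The unnamed VEC groups were not among the 14. That led by *Rgs4* and *Notch3* held *Aqp7* at 169 CPM in Control and 105 CPM in AngII+HS, and *Cd36* at 2922 and 1829 CPM. For these genes it was closer to capillary-like cells than any of the others compared. In the Control library, *Cd36* measured 4588 CPM in capillary-like cells (95% interval 4424 to 4756), 1085 CPM in macrophages, 795 CPM in venous-like, 261 CPM in lymphatic and 29.8 CPM in arterial-like endothelial cells. *Fabp4* measured 29310.5 CPM in capillary-like, 6645 CPM in venous-like, 2156 CPM in lymphatic and 261 CPM in arterial-like cells and 372 CPM in VSMCs. T cells held it at 19.1 CPM. VSMCs, 49.3% of the Control cells, carried 37.9% of that library's *Fabp4* UMIs, and capillary-like cells 36.3%.

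The genes least shared with other cells were *Aqp7*, *Car4*, *Rbp7* and *Gpihbp1*. Capillary-like cells, 1.35% of the Control cells, carried 84.4% of all *Aqp7* UMIs, 82.2% of *Car4*, 76.8% of *Rbp7* and 72.8% of *Gpihbp1* UMIs. *Gpihbp1*, the anchor of the lipase, measured 1021 CPM there, 128 CPM in lymphatic endothelial cells, 17.1 CPM in venous-like and 2.64 CPM in arterial-like cells. *Lpl*, the enzyme it holds, was shared with fibroblasts, which measured 234 CPM and carried 63.0% of the Control library's *Lpl* UMIs, while capillary-like cells measured 1126 CPM. *Aqp7* was at 0 UMIs in lymphatic endothelial cells of both libraries, while the other 9 genes were detected in them.

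**Figure D1:**
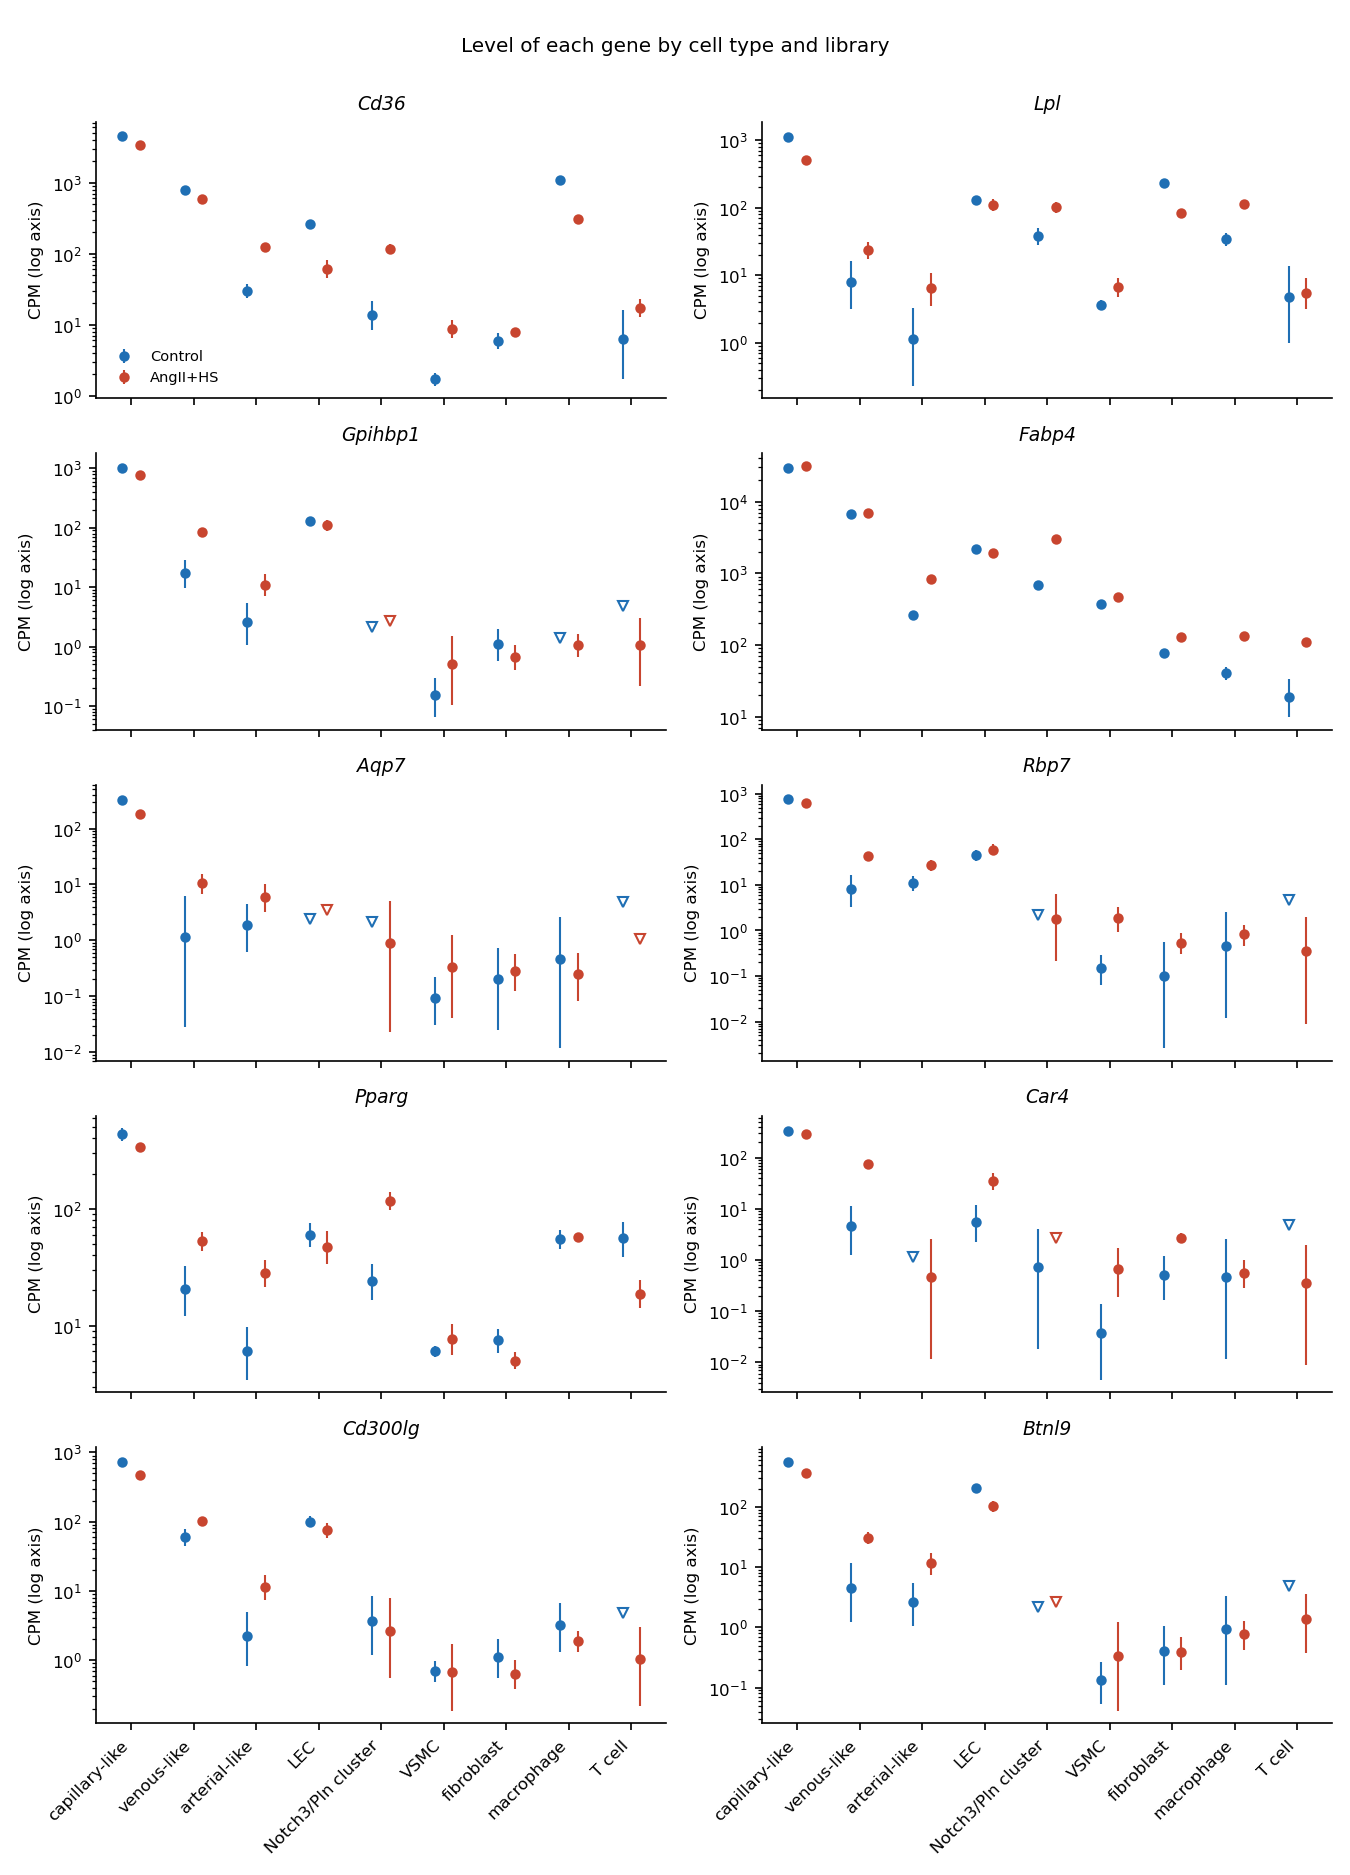
Level of each gene in CPM of the cell type's summed UMIs (log axis) in 9 cell types or clusters, for the Control (blue) and the AngII+HS library (red). Bars are 95% exact Poisson intervals for counting error and open triangles mark 0 UMIs, drawn at the level of 3 UMIs. All 10 genes stood highest in capillary-like cells in both libraries.

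The promoter of *Aqp7* is shown because it holds the core motif to which nuclear receptors such as *Pparg* bind. The letters searched were AGGTCA on both strands, from 250 bases before to 50 bases after the annotated start (GRCm39). The motif was found in 15.1% of 21770 promoters and in 2 of the 10 members, of which *Aqp7* is described here. There it is printed in capitals, and begins on the opposite strand at -24, counted from the start site. The direct repeat AGGTCANAGGTCA was in 0.0459% of promoters and in 0 of the 10. A match is a description of the sequence, not of binding. The promoter of *Aqp7* lies on the minus strand, at chr4:41048112-41048411, and is printed 5′ to 3′.
Aqp7: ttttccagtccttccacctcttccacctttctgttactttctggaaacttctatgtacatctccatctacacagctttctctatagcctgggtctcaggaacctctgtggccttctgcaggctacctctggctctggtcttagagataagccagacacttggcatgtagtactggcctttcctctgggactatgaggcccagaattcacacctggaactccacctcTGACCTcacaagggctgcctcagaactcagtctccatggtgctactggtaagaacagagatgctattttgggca

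Over all VECs, the genes stood on balance higher in the AngII+HS library. *Fabp4* measured 6379 CPM in Control and 11144 CPM in AngII+HS VECs (log2 ratio 0.80, 95% interval 0.78 to 0.83), *Car4* 55.5 and 101 CPM (0.86, 0.64 to 1.08) and *Pparg* 79.1 and 113 CPM (0.52, 0.33 to 0.71). These 3 of the 10 genes were past a log2 ratio of 0.5 upward, which 20.7% of the 13148 genes with at least 20 UMIs in VECs were. None of the 10 was past it downward, as 16.8% of genes were. *Lpl* stood lower, at 189 and 143 CPM (-0.40, -0.54 to -0.26), and *Aqp7* at 54.4 and 53.3 CPM, with an interval of -0.27 to 0.22. The median log2 ratio of the 10 genes was 0.36, against 0.04 over all genes tested.

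The mix of VEC subtypes differed between the libraries. Capillary-like cells were 16.6% (14.1 to 19.3) of Control and 35.4% (32.7 to 38.2) of AngII+HS VECs, venous-like cells 19.7% and 29.1%, and arterial-like cells 58.9% and 33.2%. These shares come from 1 dissociation per condition, whose yield of each cell type was not tested. With the 3 subtypes of the AngII+HS library weighted as in the Control, by their UMIs, the median log2 ratio of the 10 genes went from 0.41 to -0.25. The ratio of *Fabp4* went from 0.81 to 0.16, that of *Cd36* from 0.30 to -0.32 and that of *Lpl* from -0.35 to -0.999. *Fabp4*, *Pparg* and *Car4* kept a ratio above 0 after the weighting and the other 7 stood below 0. The weighting cut the capillary-like share of the AngII+HS UMIs from 24.7% to 15.4%. It raised the arterial-like share from 36.7% to 63.5%. Of the 3 subtypes in that library, capillary-like cells held all 10 genes highest and arterial-like cells lowest, so each ratio had to fall. No value over all genes was computed under this weighting.

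**Figure D2:**
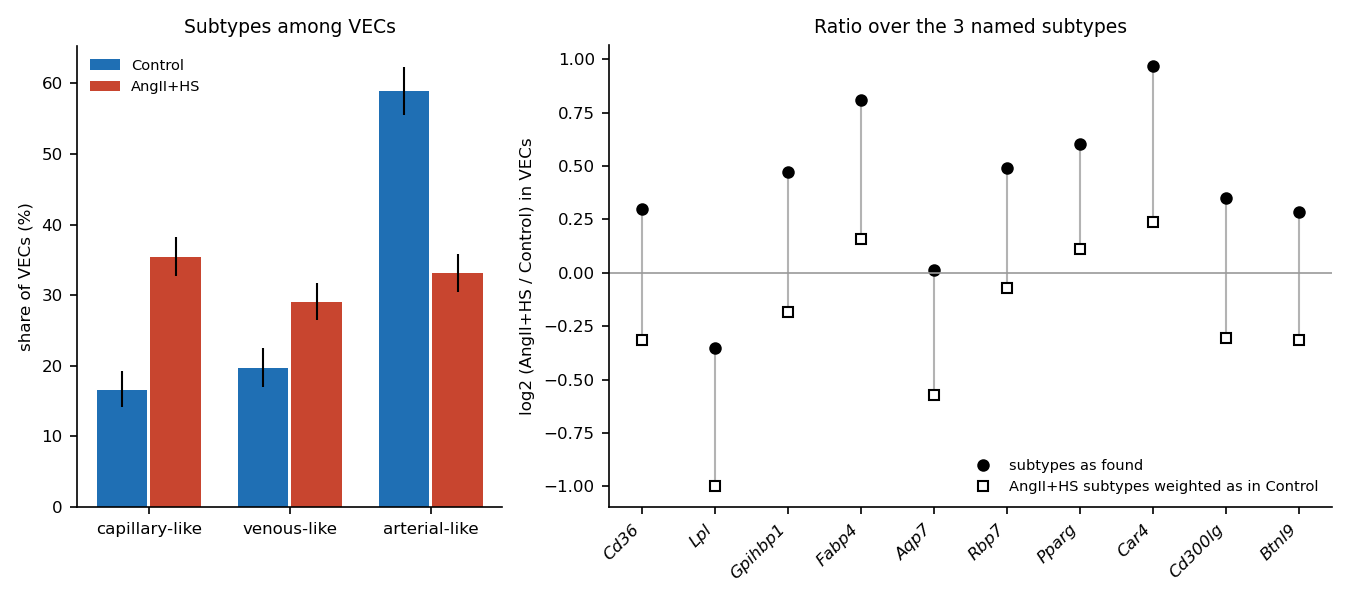
Left, share of VECs in each subtype (%) with 95% exact binomial intervals, for Control (blue) and AngII+HS (red). Right, log2 ratio of each gene over the 3 named subtypes as found (filled) and with the AngII+HS subtypes weighted as in the Control (open squares). For all 10 genes the weighted ratio was the lower, an outcome fixed by the weighting and the order of the subtypes.

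Within capillary-like cells, 9 of the 10 genes stood lower in the AngII+HS library, 8 of them with an interval below 0. The share of all genes below 0 was not computed, so this count alone is no support for a difference. The capillary marker list, which holds none of the 10 genes, also summed lower in these cells in the AngII+HS library. *Lpl* measured 1126 CPM in Control and 512 CPM in AngII+HS cells (log2 ratio -1.14, -1.29 to -0.99), and *Gpihbp1* 1021 and 768 CPM (-0.41, -0.55 to -0.27). These intervals cover counting error only, and whether the lipase and its anchor differ in their ratios was not tested. *Cd36* measured 4588 and 3357 CPM (-0.45, -0.52 to -0.38), *Rbp7* 776 and 624 CPM (-0.31, -0.47 to -0.15) and the glycerol channel *Aqp7* 318 and 181 CPM (-0.81, -1.08 to -0.54). *Fabp4*, at 29310.5 and 31194 CPM, was the gene on the other side (0.09, 0.07 to 0.11).

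*Pparg*, the nuclear receptor among the members, measured 433 and 338 CPM in these cells (-0.36, -0.57 to -0.14). Whether it regulates the other members here was not tested. Of the surface genes, *Cd300lg* measured 717 and 465 CPM (-0.62, -0.80 to -0.45) and *Btnl9* 546 and 364 CPM (-0.59, -0.78 to -0.39). *Car4*, at 329 and 292 CPM, had an interval that held 0 (-0.41 to 0.07). Hence 4 of the 10 genes were past a log2 ratio of 0.5 downward (*Lpl*, *Aqp7*, *Cd300lg* and *Btnl9*), beside 18.5% of the 8522 genes tested in capillary-like cells. No member was past it upward, beside 22.2% of genes. The median log2 ratio was -0.43 for the members and -0.01 for all genes tested.

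The capillary-like cells of the AngII+HS library were not uniform, and this bears on those values. Clustered at a finer resolution, VECs gave 2 capillary-like groups. The first held 7 Control and 325 AngII+HS cells, the latter with a median of 2009 UMIs, and the second held 129 Control and 95 AngII+HS cells with medians of 3609 and 4403 UMIs. The first is held almost wholly by 1 library and may be a trait of that library and not a cell type. In the second group the median log2 ratio was -0.03, with *Cd36* at 4717 and 4817 CPM, *Gpihbp1* at 1071 and 1008 CPM, and *Fabp4* at 30253 and 44633 CPM. *Lpl* stood lower there, at 1170 and 596 CPM (-0.97), and *Fabp4* higher (0.56). The share of all genes past 0.5 was not computed for this group, so its members are not counted. The AngII+HS cells of the first group measured 477 CPM of *Lpl*, 2488 CPM of *Cd36*, 234 CPM of *Btnl9* and 346 CPM of *Cd300lg*. The capillary marker list summed to 4719 CPM in them, against 8471 CPM in Control and 7422 CPM in AngII+HS cells of the second group.

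Other RNA also differed between the capillary-like cells of the libraries. The erythroid list, mostly hemoglobin, summed to 32.6 CPM in Control and 2098 CPM in AngII+HS capillary-like cells, against 15.1 and 26.7 CPM in arterial-like cells. It summed to 32.9 and 1456 CPM in the second finer group and to 2559 CPM in the AngII+HS cells of the first. Mitochondrial genes took 2.94% and 1.16% of the capillary-like cells' UMIs. Adipocytes also use *Fabp4*, *Cd36*, *Lpl* and *Pparg*, and their list summed to 43.4 and 92.6 CPM, of which *Cfd* made up 23.3 and 67.2 CPM. The adipocyte hormones *Adipoq* and *Lep* had 1 and 7 UMIs and 0 UMIs in capillary-like cells. Fibroblast markers summed to 109 and 517 CPM and neutrophil markers to 12.4 and 152 CPM in them, against 97.1 and 647 CPM and 1.59 and 237 CPM in T cells. The part of hemoglobin, adipocyte RNA, free RNA and depth in the ratios was not tested.

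Counted per cell, capillary-like cells held fewer of the genes in the AngII+HS library. At the finer resolution 325 AngII+HS cells lay in a group with 7 Control cells, and the finer groups were not counted apart here. With every cell thinned to 1000 UMIs and 2 Control and 52 AngII+HS cells left out as too shallow, a capillary-like cell had a UMI of a median of 5 of the 10 genes in the Control (quartiles 4 and 6) and of 4 in the AngII+HS library (3 and 6). Cells with 5 genes or more were 68.6% (60.1 to 76.3) of Control and 46.3% (41.1 to 51.5) of AngII+HS capillary-like cells. *Lpl* was detected in 63.5% and 34.8% of the thinned cells (86.3% and 55.2% unthinned), against 0% and 0.649% of T cells. *Aqp7* was detected in 31.4% and 16.8% of them (69.8% and 36.6% unthinned) and *Car4* in 24.1% and 27.8% (60.4% and 45.1% unthinned).

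**Figure D3:**
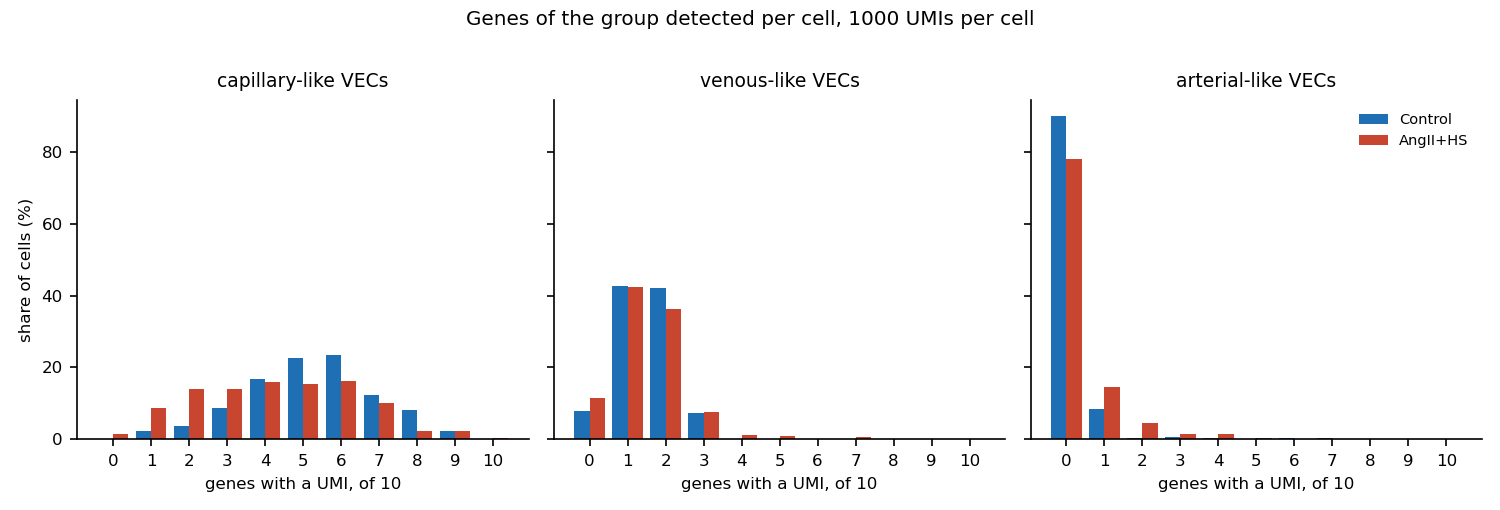
Share of cells (%) by the number of the 10 genes with a UMI, with each cell thinned to 1000 UMIs, in Control (blue) and AngII+HS (red). The most frequent number was 6 in capillary-like cells of both libraries (23.4% and 16.3% of cells), 1 in venous-like cells (42.7% and 42.3%) and 0 in arterial-like cells (90.0% and 78.1%).

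Most ratios in venous-like and arterial-like cells rest on few Control UMIs. In venous-like cells, *Cd36* stood at 795 CPM in Control and 584 CPM in AngII+HS (-0.45, -0.58 to -0.31) and *Fabp4* at 6645 and 6934 CPM (0.06, 0.02 to 0.11). The other 8 genes were all past 0.5 upward, beside 32.1% of genes tested there, and none was past it downward, beside 18.4%. Of these 8, only *Cd300lg* had 20 UMIs or more in the Control, so that the others passed the filter through the AngII+HS library and their count is no support for a difference. *Car4* measured 4.55 and 74.8 CPM (4.04, 2.66 to 5.93), *Gpihbp1* 17.1 and 83.6 CPM (2.29, 1.53 to 3.16), *Rbp7* 7.97 and 42.9 CPM (2.43, 1.33 to 3.78) and *Cd300lg* 59.2 and 102 CPM (0.79, 0.35 to 1.25). With cells thinned to 1000 UMIs the ratio of *Cd300lg* was -0.12 and that of *Lpl* 0.25, and with double the number of doublets removed they were 0.48 and 0.06, which left 6 genes past 0.5 upward under either setting. A finer venous-like group of 2 Control and 119 AngII+HS cells, led by *Col15a1* and *Akr1b8*, held 162 *Car4* UMIs, or 118 CPM, in AngII+HS, while its 2 Control cells held 0. In a finer venous-like group of 91 Control and 141 AngII+HS cells, *Car4* measured 6.96 and 11.8 CPM, with an interval that held 0 (-1.14 to 2.94), and *Gpihbp1* 17.4 and 79.3 CPM (a log2 ratio of 2.19). There *Cd36* stood the other way than over all venous-like cells, at 594 and 749 CPM (0.34, 0.14 to 0.54), and *Fabp4* had a ratio of 0.84. In the remaining finer venous-like group, of 72 Control and 89 AngII+HS cells, *Cd36* measured 1264 and 714 CPM (-0.82, -1.10 to -0.56) and *Fabp4* had a ratio of -0.21. The venous marker list summed to 6419 and 6559 CPM in that group and the arterial list to 6359 and 4575 CPM. Its venous-like name is thus uncertain for the Control cells. *Gpihbp1* had 2 and 1 UMIs in that group, and *Aqp7*, *Rbp7* and *Btnl9* had 0 in both libraries. Over all venous-like cells the levels were below those of capillary-like cells, by 3.90-fold for *Car4* (3.26 to 4.68) and 9.19-fold for *Gpihbp1* (7.87 to 10.8) in the AngII+HS library.

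In arterial-like cells the levels were low in both libraries. *Cd36* measured 29.8 CPM in Control and 123 CPM in AngII+HS (2.04, 1.68 to 2.42), *Fabp4* 261 and 825 CPM (1.66, 1.53 to 1.79) and *Pparg* 6.03 and 28.1 CPM (2.22, 1.41 to 3.12). Of the 7 genes with at least 20 UMIs there, 7 were past 0.5 upward, beside 17.6% of genes tested, and 0 downward, beside 14.6%. *Gpihbp1*, *Pparg*, *Cd300lg* and *Btnl9* had under 20 UMIs in the Control and passed the filter through the AngII+HS library. Their place in the count is no support for a difference. With cells thinned to 1000 UMIs the ratio of *Gpihbp1* was 0.04 and that of *Pparg* 0.49, both inside the threshold. Of the arterial-like *Cd36* UMIs, 69 of 79 in the Control and 224 of 266 in the AngII+HS library lay in the arterial-like subcluster led by *Dkk2* and *Sema3g* (75 Control and 74 AngII+HS cells). There *Cd36* measured 180 and 679 CPM and *Fabp4* 1533 and 4989 CPM. At the finer resolution, 78 Control and 82 AngII+HS cells formed an arterial-like group also led by *Dkk2*. Its arterial marker list summed to 15660 and 7072 CPM and its capillary list to 2838 and 3558 CPM. The cells of that group were thus not alike in the Control and AngII+HS libraries. In the largest arterial-like subcluster (316 and 226 cells), led by *Gxylt2* and *Ecrg4*, *Fabp4* measured 58.8 and 96.1 CPM, below the 108 CPM of AngII+HS T cells. T cells held *Fabp4* at 19.1 CPM in the Control, and *Cd36* at 6.37 and 17.4 CPM, so the background of free RNA was itself higher in the AngII+HS library. With that background subtracted, the ratios in arterial-like cells were 2.16 for *Cd36* and 1.57 for *Fabp4*. *Pparg* in Control arterial-like cells lay below the 55.7 CPM of Control T cells (log2 ratio -3.21). It also lay below that level in Control VSMCs (-3.21) and fibroblasts (-2.90), so T cells give no measure of free RNA for *Pparg*.

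**Figure D4:**
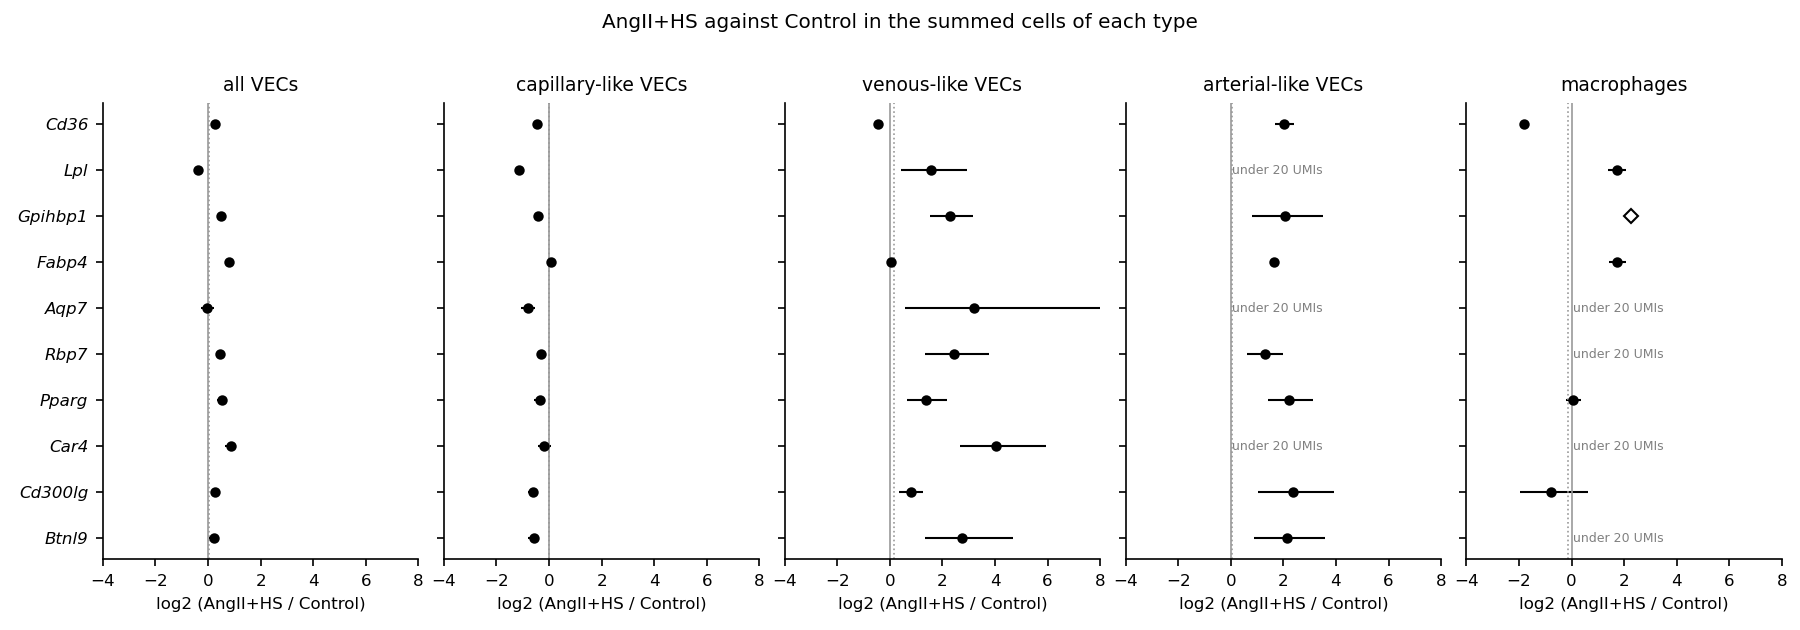
Log2 ratio of AngII+HS over Control for each gene with at least 20 UMIs, with 95% exact binomial intervals for counting error (that of *Aqp7* in venous-like cells runs past the axis), in all VECs, the 3 subtypes and macrophages. The dotted line is the median of all genes tested, and the open diamond is a gene with 0 UMIs in the Control (0.5 UMIs added). Capillary-like ratios lie mostly below 0, and venous-like and arterial-like ratios mostly above. Most of the venous-like and arterial-like genes above 0 had under 20 UMIs in the Control and passed the filter through the AngII+HS library. Their place is no support for a difference.

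Lymphatic endothelial cells (138 Control and 156 AngII+HS) carried lower levels of *Cd36* and *Btnl9* in the AngII+HS library. *Cd36* measured 261 and 61.1 CPM (-2.09, -2.54 to -1.67) and *Btnl9* 209.6 and 103 CPM (-1.02, -1.38 to -0.66). *Gpihbp1* (128 and 109 CPM), *Lpl* (129 and 111 CPM) and *Pparg* (59.9 and 47.0 CPM) had intervals that held 0. *Car4* measured 5.66 and 35.3 CPM (2.64, 1.42 to 4.07). With 7 and 30 UMIs it passed the filter through the AngII+HS library, so its ratio is no support for a difference.

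Macrophages, 480 Control and 4455 AngII+HS cells, differed by gene. *Cd36* measured 1085 CPM (1042 to 1130.3) in the Control and 312 CPM (304 to 320) in the AngII+HS library, a log2 ratio of -1.80 (-1.87 to -1.73). *Lpl* measured 34.3 and 114 CPM (1.73, 1.40 to 2.08), and *Fabp4* 40.3 and 134 CPM (1.73, 1.42 to 2.06), the latter beside 108 CPM in T cells of the AngII+HS library. *Pparg* measured 54.7 and 57.3 CPM (0.07, -0.21 to 0.35), against 55.7 and 18.8 CPM in T cells. With cells thinned to 1000 UMIs, 47.2% of Control macrophages had a UMI of *Cd36*, against 19.0% of AngII+HS macrophages (T cells 0% and 1.76%). Of the 6 members with at least 20 UMIs, 2 were past 0.5 downward (*Cd36* and *Cd300lg*, the latter with an interval that held 0), beside 32.9% of genes tested, and 3 upward (*Lpl*, *Gpihbp1* and *Fabp4*), beside 22.6%. *Gpihbp1*, at 0 and 21 UMIs, passed the filter through the AngII+HS library alone and measured 1.07 CPM in AngII+HS macrophages and 1.04 CPM in T cells, so its place among the 3 is no sign of a difference. With the T-cell level subtracted, the ratio of *Fabp4* was 0.26, inside the threshold, that of *Gpihbp1* -2.06 and that of *Lpl* 1.86. Scaling by TMM factors moved every macrophage ratio up by 0.30, which changed no sign of *Cd36*, *Lpl* or *Fabp4*.

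The ratios differed between groups of macrophages, and these differences were not tested. In resident-like macrophages (345 and 1009 cells), led by *Lyve1* and *Cd163*, *Cd36* measured 1411 CPM (1352 to 1471) in Control and 414 CPM (393 to 436) in AngII+HS cells, *Lpl* 28.5 and 58.9 CPM (1.05, 0.57 to 1.55), and *Pparg* 38.9 and 131 CPM (1.75, 1.36 to 2.17). *Lyve1* itself measured 742 and 152 CPM in this subcluster, so the cells under its name were not alike in the Control and AngII+HS libraries. In the subcluster led by *Gpnmb*, *Mmp12* and *Trem2* (77 and 476 cells), *Lpl* measured 83.6 and 501 CPM (2.58, 1.86 to 3.42), with 1413 of the 2223 *Lpl* UMIs of AngII+HS macrophages, and *Fabp4* 55.7 and 300.3 CPM, while *Cd36* measured 546 and 372 CPM. The 77 Control cells of that subcluster were shallow, with a median of 1022 UMIs against 5157.5 UMIs in AngII+HS. They also held *Hbb-bs*, a hemoglobin gene, at 6211 CPM, against 13.5 CPM in the AngII+HS cells. *Lpl* and *Fabp4* had under 20 UMIs in those Control cells and passed the filter through the AngII+HS library. Their ratios in this subcluster are thus no support for a difference. The part of depth and hemoglobin in these ratios was not tested. In the subcluster led by *Arg1* and *Vcan* (42 and 1840 cells), *Cd36* measured 38.9 and 387 CPM (3.31, 2.54 to 4.23) and *Pparg* 35.9 and 9.19 CPM. Both had under 20 UMIs in its Control cells. *Cd36* thus passed the filter through the AngII+HS library, and its ratio there is no support for a difference. The median depth of this subcluster was 7618.5 UMIs in Control and 4185 UMIs in AngII+HS. *Lyz2*, a leading gene of macrophages, measured 9218 and 3873 CPM, so its cells were not alike in the Control and AngII+HS libraries. Monocyte-like cells led by *Ly6c2* (11 and 840 cells) held *Cd36* at 682 and 56.4 CPM. Macrophages carried 33.3% of the Control library's *Cd36* UMIs and 43.7% of those of the AngII+HS library, and 2.04% and 37.4% of its *Lpl* UMIs.

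**Figure D5:**
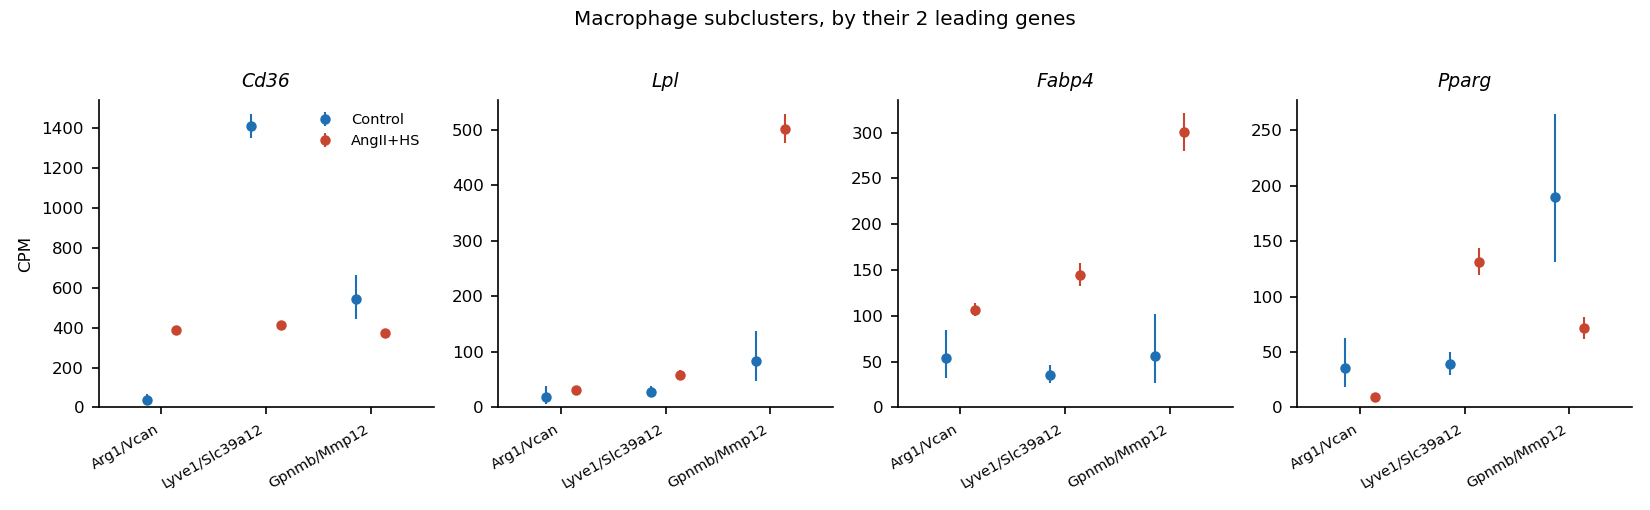
Level in CPM of *Cd36*, *Lpl*, *Fabp4* and *Pparg* in 3 macrophage subclusters named by their 2 leading genes, for Control (blue) and AngII+HS (red). Bars are 95% exact Poisson intervals. *Cd36* was highest in the Control cells led by *Lyve1* and *Lpl* in AngII+HS cells led by *Gpnmb* and *Mmp12*.

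Outside endothelium and macrophages, *Lpl* was lower in AngII+HS fibroblasts, at 234 and 84.7 CPM (-1.47, -1.55 to -1.38). The mix of fibroblast clusters differed between the libraries. The cluster led by *Rbp4* held 1548 Control and 1652 AngII+HS cells, and that led by *Sfrp4* held 329 and 2051. Those led by *Clec3b* and *Prg4* held 733 and 854 cells and 0 and 163 cells. The part of this mix in the fibroblast ratios was not tested. Fibroblasts had 4 of 7 members with at least 20 UMIs past 0.5 downward, beside 24.0% of genes tested, and 2 upward (*Fabp4* and *Car4*), beside 14.1%. *Car4*, at 5 and 77 UMIs, passed the filter through the AngII+HS library, so its place there is no support for a difference. Apart from *Lpl* and *Fabp4*, the members measured under 8 CPM in fibroblasts of either library. Scaling by TMM factors moved every fibroblast ratio up by 0.21, which takes *Pparg* (-0.58) inside the threshold. The intervals of *Gpihbp1* and *Cd300lg*, also counted downward, held 0, and with no doublets removed their ratios were 1.76 and 0.66. *Fabp4* stood at 78.2 and 130 CPM in fibroblasts against 19.1 and 108 CPM in T cells, and its ratio of 0.73 was -1.47 with the T-cell level subtracted. In VSMCs it stood at 372 and 469 CPM (0.34, 0.28 to 0.39). A small unnamed cluster led by *Notch3* and *Pln* (167 Control and 217 AngII+HS cells), genes of mural cells, had *Fabp4* at 697 and 3037 CPM (2.12, 2.02 to 2.23), *Cd36* at 13.8 and 117 CPM (3.09, 2.39 to 3.86), *Pparg* at 23.9 and 117 CPM (2.29, 1.73 to 2.89) and *Lpl* at 37.7 and 103 CPM (1.45, 0.96 to 1.95). *Cd36* had 19 UMIs in the Control cells of this cluster and passed the filter through the AngII+HS library. Its log2 ratio there over Control T cells had an interval that held 0 (-0.48 to 3.13). The share of all genes past 0.5 was not computed for this cluster. The cluster held 0 UMIs of *Gpihbp1* and of *Btnl9* in both libraries, and *Cdh5* at 2.17 and 6.25 CPM.

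The wider pathways were counted in VECs from lists of other genes. Of the lipoprotein lipase list, 8 of 12 genes had at least 20 UMIs, with 4 past 0.5 upward and 1 downward, *Lipc* (14 and 14 UMIs, -0.52, with an interval that held 0). Of the 4, *Apoc1* (2 and 20 UMIs) and *Apoc2* (0 and 26 UMIs) passed the filter through the AngII+HS library. Their place in the count is no support for a difference. The counts of this and the next lists in VECs stand beside 20.7% of all genes tested past 0.5 upward and 16.8% downward. *Lipg*, endothelial lipase, measured 4.63 and 23.4 CPM (2.34, 1.66 to 3.09), and *Angptl4*, an inhibitor of the lipase and also on the list of PPAR targets, 20.6 and 70.3 CPM (1.77, 1.44 to 2.12). In capillary-like cells *Angptl4* measured 118 and 168 CPM (0.51, 0.14 to 0.90), beside the lower *Lpl*. *Lipg* measured 24.8 and 43.9 CPM there (0.82, 0.02 to 1.71). With 16 UMIs in the Control it passed the filter in those cells through the AngII+HS library. *Sel1l*, needed for folding of the lipase, stood at 93.2 and 70.1 CPM and *Vldlr*, a lipoprotein receptor, at 5.78 and 4.85 CPM, both inside the threshold.

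Among 12 of 20 genes of fatty acid transport and activation, 4 were past 0.5 downward and 2 upward. The caveolar genes *Cavin2* (849.5 and 383 CPM, -1.15) and *Cav2* (245 and 131 CPM, -0.91) were the lowest and were also lower within capillary-like cells (-0.72 and -0.88). *Fabp5*, another fatty acid carrier, measured 246 and 512 CPM (1.06) and *Acsl4*, which activates fatty acids, 36.1 and 57.0 CPM (0.66). Within capillary-like cells the ratio of *Fabp5* was 0.13. Of 17 genes of fatty acid oxidation, 1 was past 0.5 downward, *Cpt1a* (48.8 and 31.3 CPM, -0.64), which brings fatty acids into mitochondria, and 1 upward, *Acads* (7.17 and 11.1 CPM, 0.64). The oxidation enzymes *Hadh* (37.7 and 30.7 CPM) and *Acadvl* (17.1 and 23.6 CPM) were the next on each side.

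Of the 12 genes of lipid storage and lipolysis, 4 were past 0.5 upward and 2 downward. *G0s2*, an inhibitor of lipolysis, measured 3.93 and 27.6 CPM (2.81, 2.09 to 3.63), *Hilpda*, a lipid droplet protein, 21.3 and 70.3 CPM (1.72, 1.40 to 2.06) and *Pnpla2*, the first lipase of lipolysis, 106 and 70.6 CPM (-0.58, -0.77 to -0.39). *G0s2*, with 17 UMIs in the Control, passed the filter through the AngII+HS library. It was also a leading gene of neutrophils, whose markers stood higher in AngII+HS than in Control T cells. The part of free RNA in its ratio was not tested. The lipid droplet protein *Plin3* stood at 38.6 and 28.6 CPM. *G0s2*, *Hilpda* and *Pnpla2* kept their direction in capillary-like cells (3.41, 1.43 and -0.87), where *G0s2* had 1 UMI in the Control and an interval of 0.79 to 8.77. Of 11 genes of this list with at least 20 UMIs in capillary-like cells, 4 were past 0.5 downward and 2 upward, beside 18.5% and 22.2% of genes there. Of 17 partners and targets of PPARs, 12 had at least 20 UMIs, and of these 3 were past 0.5 upward, including *Plin2* (65.2 and 120 CPM, 0.87), and 2 downward. Within capillary-like cells the ratio of *Plin2* was 0.31. Of 10 regulators of endothelial fatty acid uptake, 3 were past 0.5 upward and 1 downward. Among the 3, *Apln* (0 and 39 UMIs) passed the filter through the AngII+HS library alone, so its place is no support for a difference. *Aplnr*, the apelin receptor, measured 19.2 and 171 CPM (3.16, 2.83 to 3.50) and *Notch1* 386 and 268 CPM (-0.53), while the growth factor *Vegfb* stood at 15.0 and 13.1 CPM. Within capillary-like cells *Aplnr* measured 99.3 and 184 CPM (0.89, 0.49 to 1.31). It was also a leading gene of a venous-like subcluster of 96 Control and 271 AngII+HS cells. *Nrp1*, a co-receptor of VEGF, stood at 274 and 405 CPM in all VECs (0.57) and at 678 and 523 CPM in capillary-like cells (-0.37).

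The profiles of the members over 12 cell types and 2 libraries, 24 points that share those libraries, were compared by Pearson's r of log2(CPM + 5). Each member against the mean of the other 9 gave r from 0.70 for *Lpl* to 0.97 for *Cd300lg*. The genes most like the members' mean were *Rtp3* (r = 0.96), *Cyp1a1* (0.94), *Tcf15* (0.94), *Apol10b* (0.93) and *Pcdh12* (0.93). In capillary-like cells *Cyp1a1*, a target of the aryl hydrocarbon receptor, measured 397 CPM in Control and 95.4 CPM in AngII+HS, and *Tcf15*, a transcription factor, 467 and 305 CPM.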

How the data were processed

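Per the labels and file headers, the libraries were 10x Chromium 3′ v3.1, and the authors deposited UMI counts per gene and barcode, filtered for cell barcodes. The header names Cell Ranger 8.0.1 and the methods Cell Ranger 7.0; the labels name mm10 and the methods GRCm39. Cells with at least 500 UMIs, 200 genes and under 20% mitochondrial UMIs were kept (11288 Control and 24560 AngII+HS). Scrublet in scanpy 1.11.5 then removed 1019 and 4826 cells as doublets, set at 0.8% per 1000 cells. The kept cells held 75294050 and 80581691 UMIs. Seurat 5.3.0 integrated the libraries on 2000 variable genes without the 10 genes (30 components, resolution 0.8). VECs and macrophages were clustered again (20 components, resolution 0.4), also without the subtype markers. Cell names came from fixed marker lists, and the authors' own cell names were not used here, so the cell types may differ from theirs.

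Levels are the CPM of the UMIs summed over the cells of a type in 1 library, with exact Poisson intervals. Log2 ratios carry exact conditional binomial intervals, and shares of cells exact Clopper-Pearson intervals, all at 95% and for counting error only. A gene was counted as past the threshold at a log2 ratio of 0.5 with at least 20 UMIs over both libraries, with 0.5 UMIs added for this call. A count of 0 was given a floor of 3 UMIs. Pathway genes were named as the 2 highest and 2 lowest of each list with at least 50 UMIs. Tested on simulated counts with 200 genes changed by 2-fold, the direction was right in 100% of them in VECs (13148 genes) and 99% in capillary-like cells (8522 genes). The simulated counts held counting error only, as the intervals assume, with no variation between libraries. They thus check the computation and say nothing of the directions in these data. Smaller changes were not simulated. Promoters were read from GRCm39 at the annotated canonical start. A promoter sequence and a gene of the lists are not reported here. TMM factors came from edgeR 4.0.16. The members and lists were chosen with earlier results of these data known.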

Additional observations from a re-analysis of the deposited data

Results flagged for a closer look

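In 5 flagged pairs of cell types the ratio of AngII+HS over Control of the same gene was past 0.5 in opposite directions, with intervals that excluded 0 and levels above those of T cells in both libraries. These are not all such pairs. *Lpl* in the unnamed cluster led by *Notch3* and *Pln* also opposed capillary-like VECs and fibroblasts in this way. Further pairs had ratios on opposite sides of 0 without meeting all of these conditions, such as *Gpihbp1* in capillary-like (-0.41) and venous-like VECs (2.29). The *Cd36* log2 ratio was 2.04 in arterial-like VECs and -2.09 in lymphatic endothelial cells, a difference of 4.13, and -1.80 in macrophages, a difference of 3.84 from arterial-like VECs. The *Lpl* ratio was 1.73 in macrophages and -1.14 in capillary-like VECs, a difference of 2.87, and -1.47 in fibroblasts, a difference of 3.20. The *Cd300lg* ratio was 0.79 in venous-like and -0.62 in capillary-like VECs, a difference of 1.41, and its venous-like value was -0.12 with cells thinned to 1000 UMIs. With 1 library per condition, none of these differences was tested.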

How the results depend on the processing

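The median log2 ratio of the 10 genes in VECs, 0.36, kept its sign in every alternative run. It moved to 0.19 with no doublets removed, 0.58 with double the number removed, 0.65 with equal weight per cell and 0.65 with cells thinned to 1000 UMIs. In capillary-like cells the median of -0.43 also kept its sign, and moved to -0.25 with double the number of doublets removed and -0.30 with thinned cells. Within the finer capillary-like group of 129 Control and 95 AngII+HS cells it was -0.03. The macrophage median, -0.09, ranged from -1.42 with T-cell free RNA subtracted to 0.89 over genes with at least 20 UMIs, so its sign depends on the setting. Of 840 values of single genes, 809 kept their sign. Those that crossed 0 from a value past the threshold with an interval that excluded 0 were *Cd300lg* in venous-like cells (-0.12, thinned), *Fabp4* in fibroblasts (-1.47, free RNA subtracted) and *Car4* in fibroblasts (-0.22, double doublets removed). With an interval that held 0, *Gpihbp1* in macrophages (-2.06, free RNA subtracted, and -0.0085, double doublets removed) and in fibroblasts (up to 1.76, in 3 settings) and *Cd300lg* in fibroblasts (0.66, no doublets removed) also crossed it. The cause was not tested. VECs without the unnamed subclusters, an alternative chosen after seeing the data, gave 0.41. No paired analysis was possible because each condition is 1 library, and for that reason no library could be left out. Genes under 20 UMIs are limited by depth.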
